A study of Mus musculus with 4 samples.

Results

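Expression of 10 heat shock chaperone genes was followed on the 4 arrays of the series. The set consists of Hspa1a, Hspa1b, Hspa2, Hspa8, Hsph1, Dnajb1, Hsp90aa1, Hspb1, Hspe1 and Hspd1, and every probe set that the platform annotation ties to one of them was taken. They are 10 of the 21335 gene symbols that the annotation gives for the array. The 10 genes had 19 probe sets, of which 16 carried 1 symbol and 3 carried several. Hspa1b had no probe set of its own and was read only through a probe set shared with Hspa1a, which left 9 genes with their own probe set.

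The arrays measured RNA from mouse colony-forming cells of C57BL/6 background. The colonies came from blood stem cells with long-term (LT-HSC) or short-term (ST-HSC) repopulating ability, into which either CreER, a Cre recombinase that carries an oestrogen receptor domain, or a mock vector or treatment, not further described, had been brought. The 4 groups were LT-HSC CreER, LT-HSC mock, ST-HSC CreER and ST-HSC mock, with 1 array each. All were grown as colonies in methylcellulose with serum and the cytokines GM-CSF, IL-3, IL-6 and SCF. The series title says that the cells conditionally express MLL-ENL, a leukaemia fusion protein, but the sources used here state neither the allele of the mock cells nor any activation of CreER. The design sets CreER against mock within each stem cell population, and the populations against each other within each transduction, as a first screen for genes of leukaemic transformation.

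Values are log2 expression per probe set, and a difference of 1 is a 2-fold difference. The signal floor of an array is the median of its 1-symbol probe sets and lay between 8.07 and 8.13. A gene was called different between a pair of arrays when its absolute log2 difference was at least 1 and its higher level stood above the floor of that array. With 1 array in each group there is no replicate spread. Precision is limited by this number of arrays, no pairwise difference has a test, and the order of a gene's 4 levels is a description only. All 12 markers of blood cells in general were above the floor on all 4 arrays. Of 11 measured stem and progenitor markers, Slamf1, Mecom, Fgd5, Flt3 and Tek were under the floor on every array. The labels name the stem cells from which the colonies were grown. Of 9 measured T and B cell markers, 8 were under the floor throughout. Fewer cells of a type and less RNA per cell cannot be told apart in such bulk RNA.

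Heat shock proteins are molecular chaperones, which bind unfolded proteins and help them to fold, refold or be degraded. HSP70 proteins work in ATP-driven cycles with J-domain partners, which bring in clients, and with nucleotide exchange factors, which release them. HSP90 matures signalling proteins, and the HSP60 and HSP10 chaperonin folds proteins inside mitochondria. Some of these genes are expressed in nearly all cells, whereas others are induced through the transcription factor HSF1 when unfolded proteins accumulate, for example after heat, oxidants or proteasome inhibition.

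HSF1 binds as a trimer to heat shock elements, which are runs of the unit GAA in alternating orientation with 2 bases between neighbours. RefSeq promoter windows of assembly GRCm38.p6, with 250 bases before and 50 after each annotated start, were matched by symbol for 8 of the 10 genes, in 11 windows. The 250 bases before the start are shown for Hspa1a and Hspa1b because they carried the largest ST-HSC differences among these genes and are close copies, for Hspa2 because it carried the largest LT-HSC difference among the chaperone genes, for Hsph1 because it is a partner of HSP70 with the same highest array as Hspa1a, and for Hspe1 because its element also lies before Hspd1. Capitals mark matches to at least 2 alternating units. The sequences run 5′ to 3′ on the strand of the gene, at chr17:34972157-34972406 on the minus strand (Hspa1a), chr17:34959239-34959488 on the minus strand (Hspa1b), chr12:76404120-76404369 on the plus strand (Hspa2), chr5:149636316-149636565 on the minus strand (Hsph1) and chr1:55087898-55088147 on the plus strand (Hspe1).
Hspa1a: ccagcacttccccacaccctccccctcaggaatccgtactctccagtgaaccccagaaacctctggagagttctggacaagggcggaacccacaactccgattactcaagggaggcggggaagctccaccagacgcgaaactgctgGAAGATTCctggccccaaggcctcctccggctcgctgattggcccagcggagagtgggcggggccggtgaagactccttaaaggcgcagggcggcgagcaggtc
Hspa1b: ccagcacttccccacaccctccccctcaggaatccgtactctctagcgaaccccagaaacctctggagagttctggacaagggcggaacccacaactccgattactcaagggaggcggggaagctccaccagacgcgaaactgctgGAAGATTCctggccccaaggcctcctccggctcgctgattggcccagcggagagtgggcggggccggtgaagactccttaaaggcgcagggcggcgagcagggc
Hspa2: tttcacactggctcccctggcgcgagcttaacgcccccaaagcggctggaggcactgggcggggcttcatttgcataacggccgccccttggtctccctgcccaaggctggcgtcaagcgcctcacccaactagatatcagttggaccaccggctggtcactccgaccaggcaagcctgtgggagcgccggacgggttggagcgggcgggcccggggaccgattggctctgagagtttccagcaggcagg
Hsph1: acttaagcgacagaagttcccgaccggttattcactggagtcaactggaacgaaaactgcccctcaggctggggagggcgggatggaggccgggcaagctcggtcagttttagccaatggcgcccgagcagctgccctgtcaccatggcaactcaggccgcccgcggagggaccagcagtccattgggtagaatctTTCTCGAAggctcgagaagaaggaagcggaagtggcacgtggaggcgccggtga
Hspe1: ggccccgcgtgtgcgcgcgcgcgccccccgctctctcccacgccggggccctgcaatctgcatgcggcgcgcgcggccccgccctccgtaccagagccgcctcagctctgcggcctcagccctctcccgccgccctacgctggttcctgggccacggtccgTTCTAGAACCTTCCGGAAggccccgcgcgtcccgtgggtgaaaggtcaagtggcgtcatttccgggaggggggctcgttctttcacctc

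The sequences before Hspa1a and Hspa1b were identical at 247 of 250 positions. Counted from 1 at the 5′ end and written from Hspa1a to Hspa1b, they differed by C44T, T47C and T249G, and C276T lay in the 50 bases after the start. None of the 4 differences touched the matched element GAAGATTC, which spans 104 to 97 bases before both starts. The patterns searched were GAANNTTC and TTCNNGAA for 2 units, GAANNTTCNNGAA and TTCNNGAANNTTC for 3, and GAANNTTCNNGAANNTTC and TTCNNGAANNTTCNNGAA for 4, on both strands. Shorter matches inside longer ones were counted as well.

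Among the 8 genes with a window, 6 held a match to 2 units in at least 1 window, a common pattern that 17.0% of all 27025 genes with a window hold. A match to 3 units, held by 0.662% of those genes, occurred in Hsph1, Hspe1 and Hspd1. The element of Hspe1, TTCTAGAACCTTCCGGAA, has 4 units, a pattern found in 8 of the 27025 genes. Hspe1 and Hspd1 lie on opposite strands of chromosome 1. Hspd1 has 2 windows, numbered here by position on the chromosome. At the start in the first window, which shares 285 bases with the Hspe1 window, the genes face away from each other. The Hspd1 match to 4 units, 144 to 127 bases before that start, is the same element read on the other strand. The second Hspd1 window held no match. In Hsph1 the match to 3 units lay 16 to 28 bases after 1 annotated start and 37 to 49 bases after the other. No match was found in the windows of Hspa2 and Dnajb1. Such matches describe the letters in these windows and do not show that HSF1 was bound.

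**Figure D1:**
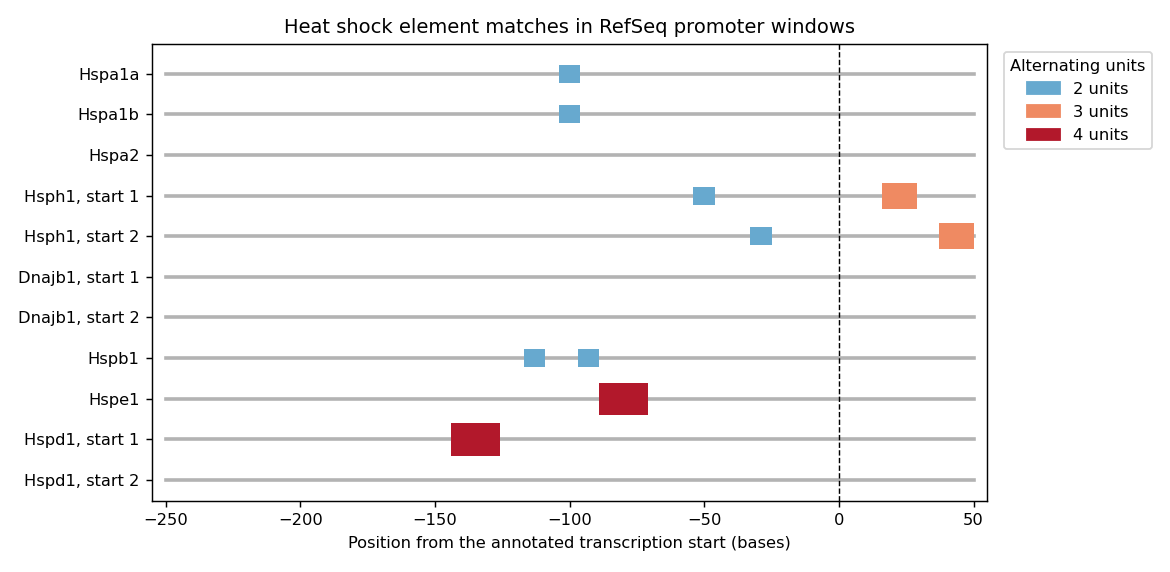
Matches to the heat shock element in 11 RefSeq promoter windows of 8 chaperone genes; the horizontal axis is the distance in bases from the annotated start (dashed line), grey bars are the 300 bases searched and coloured boxes are matches to 2, 3 or 4 alternating units. The 4-unit element is drawn for both Hspe1 and Hspd1, and Hspa1a and Hspa1b hold their 2-unit match at the same place.

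Hspa1a and Hspa1b encode the stress-inducible cytosolic HSP70 and are textbook targets of HSF1. On the probe set annotated to Hspa1a alone, the level was 9.19 on the LT-HSC CreER array, 8.96 on LT-HSC mock, 8.87 on ST-HSC CreER and 10.42 on ST-HSC mock. The probe set shared by Hspa1a and Hspa1b read 9.93 on LT-HSC CreER, 9.50 on LT-HSC mock, 9.64 on ST-HSC CreER and 10.94 on ST-HSC mock. Both probe sets stood highest on the ST-HSC mock array, and the other 3 arrays lay within 0.32 of each other for Hspa1a and within 0.43 for the shared probe set. The gap from ST-HSC mock to the next highest array was 1.23 for Hspa1a. Since the genes are near-identical copies, their signals cannot be told apart here.

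For CreER against mock in ST-HSC colonies, the Hspa1a difference was -1.55 and that of the shared probe set -1.29. Hspa1a had the lowest of all 10047 differences past the floor in this pair. In LT-HSC colonies the same differences were 0.23 and 0.43, which is the opposite direction. For LT-HSC against ST-HSC with mock, Hspa1a differed by -1.46, rank 14 from the lowest of 10208 genes, and the shared probe set by -1.44. With CreER the same comparison gave 0.32 and 0.29. Both differences beyond 2-fold use the ST-HSC mock array and are not separate observations.

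In the additive limma fit, described further on, Hspa1a differed between CreER and mock by -0.66 ± 0.40 (SE) over the 4 arrays, with a 95% interval of -1.67 to 0.35 and an adjusted p of 0.625. Its LT-HSC minus ST-HSC estimate was -0.57 ± 0.40 (SE), with an adjusted p of 0.43. The summed signal of 13 measured monocyte and macrophage markers was 14.81 (log2) on LT-HSC CreER, 15.38 on LT-HSC mock, 15.29 on ST-HSC CreER and 15.55 on ST-HSC mock, so it was highest on the same array. On ST-HSC mock 11 of the 13 were above the floor, and C1qa and C1qb were under it on all 4 arrays. For CreER against mock in ST-HSC colonies 1 of the 11 was above 0, with a median of -0.20, beside 42.6% of all genes. Between the mock arrays, LT-HSC minus ST-HSC, the 11 were split, with 5 above and 6 below 0 and a median of -0.03. The summed signal of 13 mast cell and basophil markers was 15.18 on LT-HSC CreER, 15.45 on LT-HSC mock, 13.76 on ST-HSC CreER and 13.19 on ST-HSC mock, lowest on that array. Of these, Cma1, Mcpt4 and Tpsab1 were under the floor on every array. The part of these cell types in the Hspa1a difference was not tested.

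**Figure D2:**
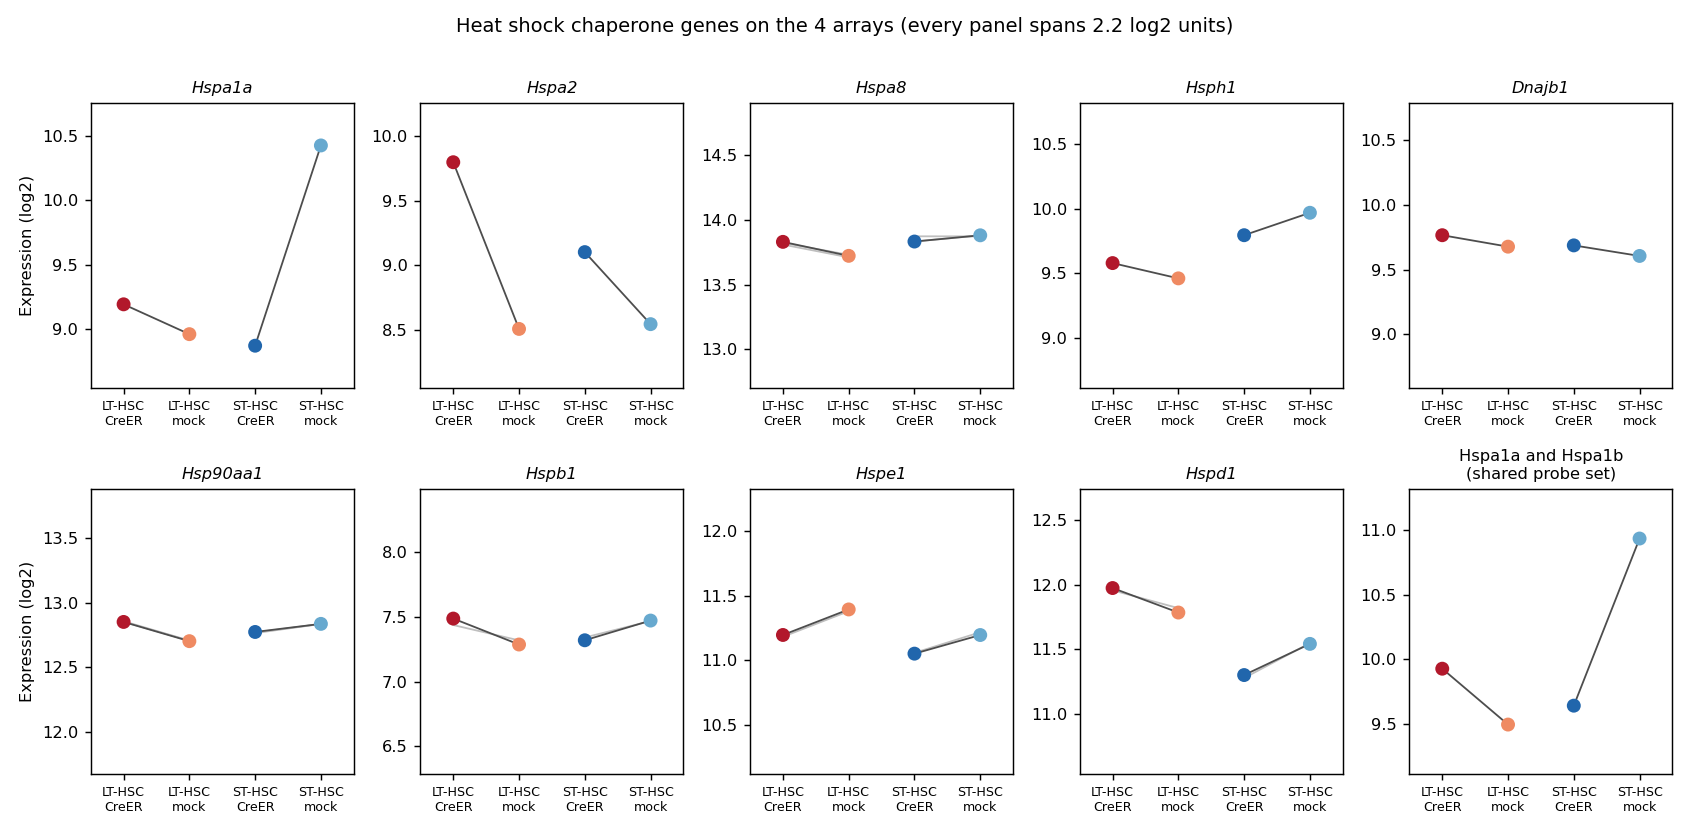
Level (log2) of each chaperone gene on the 4 arrays, 1 point for each array, with lines joining the CreER and mock arrays of a population and grey lines for further probe sets of the gene shifted to the same mean. Hspa1a and the probe set shared with Hspa1b stand highest on ST-HSC mock, Hspa2 stands highest on LT-HSC CreER, and the other genes move within 0.67 log2 units.

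Hspa2 encodes an HSP70 best known for its role in the development of male germ cells. Its level was 9.80 on LT-HSC CreER, 8.51 on LT-HSC mock, 9.10 on ST-HSC CreER and 8.54 on ST-HSC mock. Both CreER arrays thus stood above both mock arrays, and the mock arrays differed from each other by -0.04 (LT-HSC minus ST-HSC). The CreER minus mock difference was 1.29 in LT-HSC colonies, rank 5 from the highest of 10172 genes, and 0.56 in ST-HSC colonies, rank 149 of 10047. With CreER, LT-HSC colonies stood 0.70 above ST-HSC colonies.

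In limma the Hspa2 estimate for CreER minus mock was 0.92 ± 0.18 (SE), with a 95% interval of 0.46 to 1.39, an unadjusted p of 0.00351 and an adjusted p of 0.321, which was 0.229 or higher under every alternative run. It did not pass the threshold of 0.05, which no gene passed for this term. The LT-HSC CreER array, where Hspa2 was highest, also had the highest summed signal of the 11 measured stem and progenitor markers, at 13.12, against 12.97 on LT-HSC mock, 11.94 on ST-HSC CreER and 11.73 on ST-HSC mock. Of these markers, 6 stood above the floor on LT-HSC CreER and 5 on LT-HSC mock, against 4 on each of the ST-HSC arrays. The highest of these markers on LT-HSC CreER were Gata2 at 11.70, Cd34 at 10.82 and Kit at 10.67, which make up most of the sum. Gata2, which is also on the mast cell and basophil list, read 11.94 on LT-HSC mock. Slamf1, Mecom, Fgd5, Flt3 and Tek were under the floor on every array. The part of the stem and progenitor markers in the Hspa2 difference was not tested.

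Hspa8 encodes the constitutive HSP70 of the cytosol, which also drives clathrin uncoating. The most intense of its 3 probe sets with 1 symbol read 13.83 on LT-HSC CreER, 13.72 on LT-HSC mock, 13.83 on ST-HSC CreER and 13.88 on ST-HSC mock. The 4 levels lay within 0.16 log2 units, and the 3 probe sets gave differences within 0.061 of each other in every comparison. A pair of further probe sets was annotated to Hspa8 together with Snord14c and Snord14d, small nucleolar RNAs encoded in its introns. They read 11.83 and 11.83 on LT-HSC CreER, 11.42 and 11.42 on LT-HSC mock, 11.55 and 11.55 on ST-HSC CreER, and 12.01 and 12.02 on ST-HSC mock. Their CreER minus mock differences, 0.40 and 0.41 in LT-HSC colonies and -0.46 and -0.47 in ST-HSC colonies, were wider than those of Hspa8 itself, 0.11 and -0.05. For LT-HSC against ST-HSC with mock they differed by -0.58 and -0.60, against -0.16 for Hspa8.

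Hsph1 encodes HSP110, a nucleotide exchange factor for HSP70 that is also HSF1-inducible. Its level was 9.58 on LT-HSC CreER, 9.46 on LT-HSC mock, 9.80 on ST-HSC CreER and 9.97 on ST-HSC mock, so both ST-HSC arrays stood above both LT-HSC arrays. The LT-HSC minus ST-HSC difference was -0.51 with mock and -0.22 with CreER. In limma it was -0.36 ± 0.11 (SE), with a 95% interval of -0.64 to -0.08, an unadjusted p of 0.0214 and an adjusted p of 0.127. CreER minus mock differences were 0.12 in LT-HSC colonies and -0.17 in ST-HSC colonies.

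Dnajb1 encodes HSP40, the J-domain partner of the inducible HSP70. It read 9.77 on LT-HSC CreER, 9.68 on LT-HSC mock, 9.69 on ST-HSC CreER and 9.61 on ST-HSC mock, a range of 0.16, and its ST-HSC mock level was the lowest of the 4, unlike that of Hspa1a. Its 4 differences lay between 0.07 and 0.09. The limma estimate for CreER minus mock was 0.09 ± 0.09 (SE), with a 95% interval of -0.15 to 0.32 and an adjusted p of 0.801.

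Hsp90aa1 encodes the inducible isoform of cytosolic HSP90. It read 12.85 on LT-HSC CreER, 12.70 on LT-HSC mock, 12.77 on ST-HSC CreER and 12.84 on ST-HSC mock. Its range of 0.15 was the smallest among the 7 genes other than Hspa1a and Hspa2, and its 3 probe sets gave differences within 0.014 of each other. Hspb1 encodes the small heat shock protein HSP27 (HSP25 in mouse), which holds unfolded proteins without using ATP. It read 7.49 on LT-HSC CreER, 7.29 on LT-HSC mock, 7.32 on ST-HSC CreER and 7.47 on ST-HSC mock, all under the floor, so these values carry little information on its direction.

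Hspd1 and Hspe1 encode HSP60 and HSP10, the barrel and the lid of the mitochondrial chaperonin, and share the promoter region described above. Hspd1 read 11.97 on LT-HSC CreER, 11.79 on LT-HSC mock, 11.30 on ST-HSC CreER and 11.54 on ST-HSC mock. Hspe1 read 11.19 on LT-HSC CreER, 11.39 on LT-HSC mock, 11.05 on ST-HSC CreER and 11.19 on ST-HSC mock. Both genes were lowest on ST-HSC CreER, but Hspd1 was highest on LT-HSC CreER and Hspe1 on LT-HSC mock.

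For LT-HSC against ST-HSC, Hspd1 differed by 0.67 with CreER and 0.24 with mock, and Hspe1 by 0.14 and 0.20. In limma the Hspd1 estimate was 0.46 ± 0.13 (SE), with a 95% interval of 0.13 to 0.79, an unadjusted p of 0.0161 and an adjusted p of 0.11, and that of Hspe1 was 0.17 ± 0.09 (SE) with an adjusted p of 0.316. Between CreER and mock, Hspd1 differed by 0.19 in LT-HSC colonies and -0.24 in ST-HSC colonies, and Hspe1 by -0.20 and -0.14. The genes thus differed in direction in LT-HSC colonies, where their second probe sets gave 0.14 for Hspd1 and -0.20 for Hspe1.

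Across the comparisons, only Hspa1a and Hspa2 among the 9 genes with their own probe set met the 2-fold rule. For CreER against mock, 1 of the 8 chaperone genes past the floor was called in LT-HSC colonies (Hspa2), where 0.875% of all 10172 genes were called, and 1 of 8 in ST-HSC colonies (Hspa1a), where 0.518% of 10047 were. For LT-HSC against ST-HSC, 1 of 8 was called with mock (Hspa1a), beside 3.12% of 10208 genes, and 0 of 8 with CreER, beside 1.94% of 10189. In one direction, 0.108% of genes were at least 2-fold higher and 0.767% lower for CreER against mock with LT-HSC, and 0.438% and 0.0796% with ST-HSC. Between LT-HSC and ST-HSC, 2.72% were higher and 0.402% lower with mock, and 1.39% and 0.55% with CreER. A single gene of 8 is too few to set a share against these percentages. The 28 differences of the other 7 genes did not exceed 0.67 in absolute size, and 2 of them, those of Hspd1 with CreER and Hsph1 with mock, were at least 0.5.

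The median over the 9 genes was 0.15 for CreER against mock in LT-HSC colonies, with 8 of 9 above 0, and -0.14 in ST-HSC colonies, with 2 of 9 above 0. The 9 include Hspb1, which is under the floor, and the medians of all 19938 genes, with no floor, were 0.04 and -0.01. Past the floor, 7 of 8 chaperone genes were above 0 in LT-HSC colonies, beside 44.4% of all genes. In ST-HSC colonies 2 of 8 were, beside 42.6%. For LT-HSC against ST-HSC the chaperone median was -0.13 with mock, with 3 of 9 above 0, and 0.14 with CreER, with 7 of 9 above 0, against -0.03 and 0.04 for all 19938 genes. Past the floor, 3 of 8 were above 0 with mock and 6 of 8 with CreER, beside 45.1% and 46.1% of all genes. These pairs share arrays and the genes are not independent, so the turn of sign between pairs carries no test. The difference of the CreER effects, LT-HSC minus ST-HSC, was 1.78 for Hspa1a and 0.73 for Hspa2, and larger in absolute size than that of 99.8% and 97.1% of the 10411 genes in the limma fit.

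**Figure D3:**
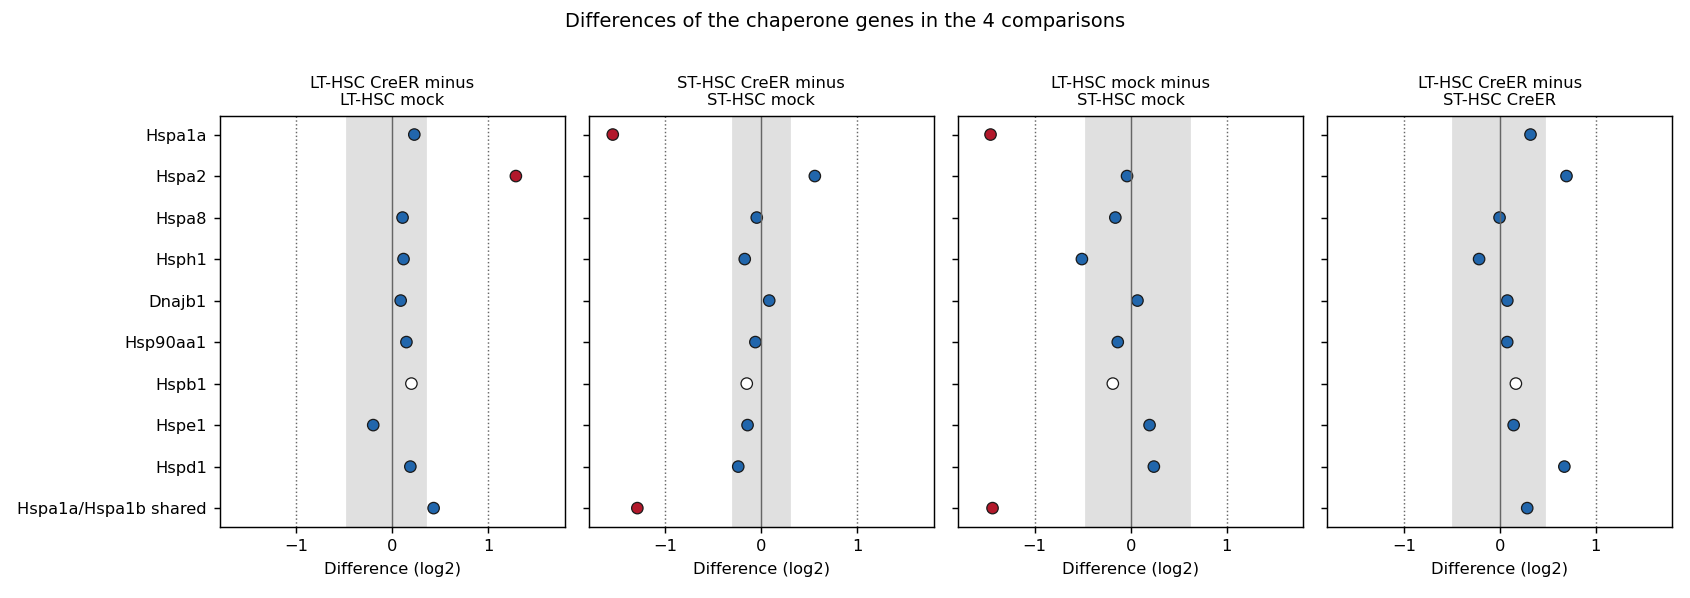
Log2 differences of the chaperone genes in the 4 comparisons. Each point is the difference of 2 arrays, red where the gene met the 2-fold rule, blue where it passed the floor only and white where it was under the floor; dotted lines mark 2-fold and the grey band holds the 5th to 95th percentile of all genes past the floor.

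The only fit with a residual degree of freedom was an additive model of population and transduction over the 4 arrays, made with limma. It sets an estimate against the departure from additivity between these arrays. Nothing in the labels says that cells came from separate animals or cultures of 1 group. The p-values of this fit thus rest only on the departure from additivity, moderated over genes, and not on a spread between replicates. For CreER minus mock, 0 of the 8 chaperone genes past the floor had an adjusted p of at most 0.05 in limma, as did 0% of the 10411 genes; 1 of 8 had an unadjusted p under 0.05, against 10.1% of all genes. For LT-HSC minus ST-HSC, 0 of 8 passed, beside 6.27% of all genes, and 2 of 8 (Hspd1 and Hsph1) had an unadjusted p under 0.05, beside 25.7%.

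Genes whose 4 levels lay nearest to those of a chaperone gene were sought among 540 genes with a range of at least 1 log2 unit, by Euclidean distance after centring each gene on its own mean. For Hspa1a they were the coagulation factor gene F13a1 at a distance of 0.28, the chemokine gene Cxcl16 at 0.51, the chemokine receptor gene Ccr2 at 0.61, Rassf4 at 0.65 and the inducible nitric oxide synthase gene Nos2 at 0.72. All 5 were highest on ST-HSC mock, which follows from their choice by distance to Hspa1a and is no separate finding. F13a1 read 11.24 on LT-HSC CreER, 10.82 on LT-HSC mock, 10.98 on ST-HSC CreER and 12.18 on ST-HSC mock. Cxcl16 and Nos2 were under the floor on both LT-HSC arrays, so the order of those levels carries little information.

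For Hspa2 the nearest genes were the homeobox gene Hoxa9 at a distance of 0.28, the receptor gene Cd27 at 0.37, the imprinted gene Dlk1 at 0.40, the oestrogen receptor gene Esr1 at 0.61 and the eosinophil ribonuclease gene Ear6 at 0.66. Hoxa9 read 9.04 on LT-HSC CreER, 7.79 on LT-HSC mock, 8.18 on ST-HSC CreER and 8.02 on ST-HSC mock. Esr1, whose protein is the kind of receptor that lends CreER its domain, read 10.48 on LT-HSC CreER, 9.69 on LT-HSC mock, 10.63 on ST-HSC CreER and 9.56 on ST-HSC mock, and whether its probe set reads CreER itself was not tested. With 4 arrays, such likeness describes only these arrays. Cd27 was above the floor on LT-HSC CreER alone, and Hoxa9 was under it on both mock arrays, so the order of their lower levels carries little information.

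**Figure D4:**
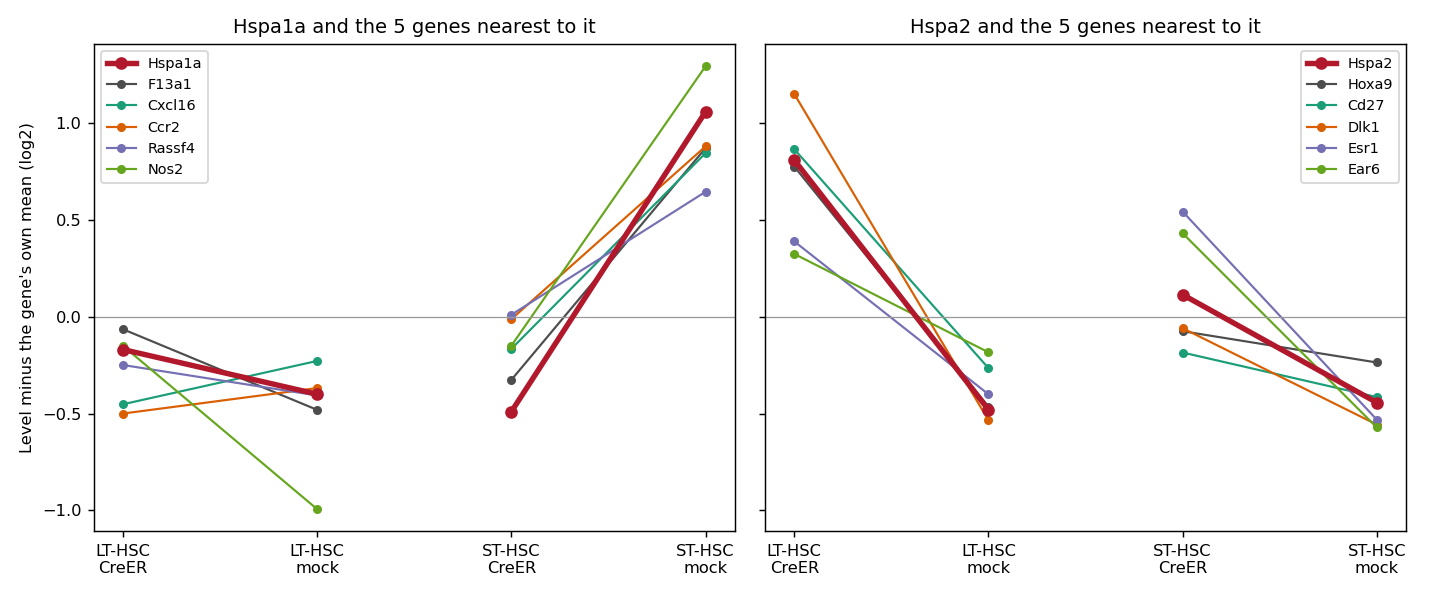
Levels (log2, minus each gene's own mean over the 4 arrays) of Hspa1a and of Hspa2 (thick red) and of the 5 genes nearest to each; lines join the CreER and mock arrays of a population. The genes near Hspa1a stand highest on ST-HSC mock, and those near Hspa2 stand higher on CreER than on mock with LT-HSC. Both follow from the choice of genes by distance. Several lower levels of Cd27, Hoxa9, Cxcl16 and Nos2 are under the floor.

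Wider lists of chaperone and stress genes were read in the same way, over the genes past the floor. In the HSP70 and HSP110 family, 11 of 14 measured genes passed it. Their median was 0.11 for CreER against mock in LT-HSC colonies and -0.07 in ST-HSC colonies, and Hspa2 and Hspa1a were the only genes called. Hspa9, the HSP70 of mitochondria, read 11.69 on LT-HSC CreER, 12.01 on LT-HSC mock, 11.07 on ST-HSC CreER and 11.25 on ST-HSC mock. For LT-HSC minus ST-HSC in limma, 6 of the 11 genes were above 0. Hspa9 was the 1 that passed, beside 6.27% of all genes, with an estimate of 0.69 ± 0.10 (SE) and an adjusted p of 0.024. Its call was lost only in a fit without the transduction term (adjusted p = 0.0975). Hspa1l, the testis HSP70 next to Hspa1a on chromosome 17, was under the floor, at 6.85 on LT-HSC CreER, 7.04 on LT-HSC mock, 7.09 on ST-HSC CreER and 7.16 on ST-HSC mock.

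Of 41 J-domain protein genes, 33 passed the floor for CreER against mock in LT-HSC colonies and 34 in ST-HSC colonies, with medians of -0.04 and -0.06, and none was called in any of the 4 pairs. Dnajb14, an HSP40 of the endoplasmic reticulum membrane, fell by 0.64 in LT-HSC colonies against ST-HSC colonies in limma, with an adjusted p of 0.0252. It read 9.17 on LT-HSC CreER, 9.09 on LT-HSC mock, 9.80 on ST-HSC CreER and 9.75 on ST-HSC mock. A probe set that carries further symbols gave -0.10 and an adjusted p of 0.577, so the direction is the same and the size rests on the probe set.

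Of the 12 HSP70 co-chaperone genes, none was called. For CreER against mock in ST-HSC colonies 10 of 11 were below 0, with a median of -0.16. Of all genes past the floor 42.6% were above 0 in this pair, with a median of -0.03. Bag3, an HSF1-inducible co-chaperone of HSP70, read 9.17 on LT-HSC CreER, 9.13 on LT-HSC mock, 9.15 on ST-HSC CreER and 9.39 on ST-HSC mock. It was highest on the same array as Hspa1a, with a CreER minus mock difference of -0.24 in ST-HSC colonies.

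None of the 15 measured genes of the HSP90 family and its co-chaperones was called. Their median for CreER against mock was 0.13 in LT-HSC colonies and -0.04 in ST-HSC colonies. The largest difference was that of Chordc1, a co-chaperone of HSP90, at -0.50 for LT-HSC against ST-HSC with mock. The steroid receptor co-chaperone gene Fkbp4 differed by 0.44 and Stip1, which links HSP70 to HSP90, by 0.26 between CreER and mock in LT-HSC colonies. Of 10 small heat shock protein genes only Hspb6 passed the floor, at 9.31 on LT-HSC CreER, 9.35 on LT-HSC mock, 9.34 on ST-HSC CreER and 9.33 on ST-HSC mock.

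Mitochondrial chaperones and proteases stood higher in LT-HSC colonies. All 11 genes, Hspd1, Hspe1 and Hspa9 among them, were above 0 for LT-HSC against ST-HSC with CreER, with a median of 0.28, and 10 of 11 with mock, with a median of 0.20. Of all genes past the floor 46.1% and 45.1% were above 0 in these pairs. In limma 1 of the 11 passed, Hspa9, beside 6.27% of all genes, and 5 had an unadjusted p under 0.05, beside 25.7%. For the same term 7 of 10 mast cell and basophil markers past the floor were higher in LT-HSC colonies and passed in limma. So did 3 of 6 stem and progenitor markers past it, and Gata2 is on both lists and counted in both. The part of these cells in the differences of any list was not tested. For CreER against mock in ST-HSC colonies all 11 were below 0, with a median of -0.16, against -0.03 for all genes, of which 42.6% were above 0. The cytosolic chaperonin TRiC and its partner prefoldin, which fold actin and tubulin, had medians of 0.26 for LT-HSC against ST-HSC with CreER and 0.09 with mock, and 0 of 14 genes passed in limma, where 2 had an unadjusted p under 0.05, beside 25.7% of all genes.

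Chaperones and stress genes of the endoplasmic reticulum stood higher in LT-HSC colonies as well, with 19 of 21 above 0 in each pair and medians of 0.28 with CreER and 0.39 with mock, against -0.02 and -0.03 for all genes. Of all genes 46.1% and 45.1% were above 0 in these pairs. In limma 3 of 21 passed, all higher in LT-HSC colonies, beside 6.27% of all genes. Atf4, a transcription factor of the integrated stress response, rose by 0.74 ± 0.09 (SE) with an adjusted p of 0.0182, and read 11.25 on LT-HSC CreER, 11.39 on LT-HSC mock, 10.50 on ST-HSC CreER and 10.66 on ST-HSC mock. Herpud1, a degradation factor, rose by 0.55 (adjusted p = 0.0369) and the disulphide isomerase gene Pdia4 by 0.61 (adjusted p = 0.0431), but the calls were lost in 4 and 6 of the alternative settings. Hspa5, the HSP70 of this compartment, read 13.05 on LT-HSC CreER, 13.42 on LT-HSC mock, 12.73 on ST-HSC CreER and 12.86 on ST-HSC mock. Ddit3, which encodes the stress factor CHOP, was the 1 gene of the list called, with 1.59 for LT-HSC against ST-HSC with mock, at 10.60 against 9.01. For CreER against mock in LT-HSC colonies 19 of 21 were below 0, with a median of -0.15. In ST-HSC colonies 16 of 21 were, with a median of -0.07. Of all genes past the floor 44.4% and 42.6% were above 0 in these pairs, with a median of -0.03 in each. In limma 0 of 21 passed for CreER minus mock.

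The HSF1-inducible list holds 9 of the 10 chaperone genes, so it is not separate from them. Of 20 measured genes 16 passed the floor. Between CreER and mock, 14 of 16 were above 0 in LT-HSC colonies, with a median of 0.13, and 4 of 16 in ST-HSC colonies, with a median of -0.08. The shares of all genes above 0 were 44.4% and 42.6% in these pairs, and 45.1% with mock and 46.1% with CreER for LT-HSC against ST-HSC. Between LT-HSC and ST-HSC with mock, 12 of 16 were below 0, with a median of -0.19, and with CreER 4 of 16, with a median of 0.06. Hspa1a was the only gene of the list called in any pair, and in limma 0 of 16 passed for either term, with 0 unadjusted p under 0.05 for CreER minus mock, beside 10.1% of all genes, and 4 for LT-HSC minus ST-HSC, close to the 25.7% of all genes. Hsf2, another heat shock factor, read 8.76 on LT-HSC CreER, 8.99 on LT-HSC mock, 9.19 on ST-HSC CreER and 9.43 on ST-HSC mock. Hsf1 was not analysed here.

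Immediate early genes are transcribed within minutes of many stimuli. The summed signal of 17 of them was 15.05 on LT-HSC CreER, 15.11 on LT-HSC mock, 14.49 on ST-HSC CreER and 14.65 on ST-HSC mock. In limma 6 of 17 passed with higher levels in LT-HSC than in ST-HSC colonies, beside 6.27% of all genes passing. The calls of Ier2, Junb and Ier3 were lost under some alternatives, with adjusted p up to 0.107, 0.101 and 0.0605. Fosb read 10.19 on LT-HSC CreER, 9.54 on LT-HSC mock, 8.26 on ST-HSC CreER and 8.22 on ST-HSC mock, with an estimate of 1.62 ± 0.16 (SE) and an adjusted p of 0.0112. Egr1 rose by 1.19 ± 0.12 (SE), also with an adjusted p of 0.0112. For CreER against mock in ST-HSC colonies, where Hspa1a differed most, the median of the 17 genes was -0.12 and none was called. In LT-HSC colonies 1 of 17 was called, lower with CreER, beside 0.875% of all genes. For LT-HSC against ST-HSC, 3 of 17 were called with mock and 4 of 17 with CreER. These were all higher with LT-HSC, beside 3.12% and 1.94% of all genes called either way. Atf3, a stress-induced transcription factor, was highest on the same array as Hspa1a, at 11.62 on LT-HSC CreER, 12.01 on LT-HSC mock, 11.45 on ST-HSC CreER and 12.09 on ST-HSC mock, with a CreER minus mock difference of -0.64 in ST-HSC colonies. Nr4a1, an orphan nuclear receptor, was also highest there, at 9.82 on LT-HSC CreER, 9.56 on LT-HSC mock, 9.94 on ST-HSC CreER and 10.07 on ST-HSC mock. Most of the list went the other way between the mock arrays. There 15 of the 17 genes were higher with LT-HSC, with a median of 0.47, beside 45.1% of all genes. Atf3 and Nr4a1 were the 2 that were lower. The part of handling or stress in the Hspa1a difference was not tested.

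**Figure D5:**
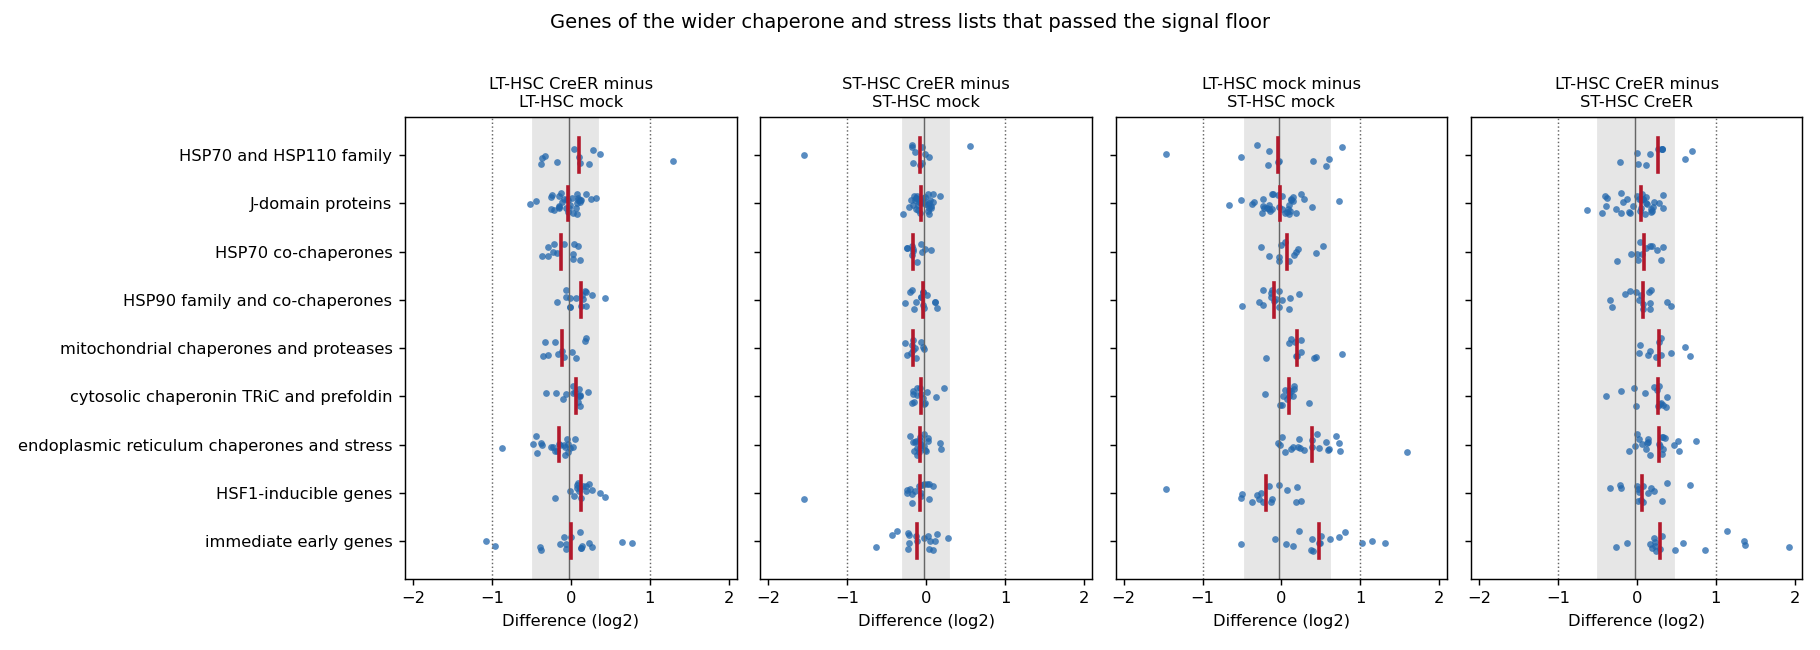
Log2 differences of the genes past the floor in 9 chaperone and stress lists (blue points, spread vertically at random) in the 4 comparisons. Red bars are list medians, the grey line is the median and the grey band the 5th to 95th percentile of all genes past the floor, and dotted lines mark 2-fold; the lists of the endoplasmic reticulum and mitochondria lie to the right of the grey line in both LT-HSC against ST-HSC panels.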

How the data were processed

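Colony RNA was run on 1 Affymetrix whole-transcript array per group after amplification and biotin labelling, per the labels' protocols. The authors deposited 1 value per probe set and array, taken to be log2 because they span 2.21 to 14.82. The submitters' processing notes name Affymetrix Expression Console; how it summarised and normalised the arrays is not given in the sources used. The values were used as deposited.

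The platform annotation gave 1 symbol to 21789 of 35556 probe sets and several to 1621, and 12146 have no symbol here. A gene was represented by its 1-symbol probe set with the highest mean, which gave 19938 genes. Probe sets with several symbols are described by all their symbols.

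Pairwise differences were called at 2-fold above the signal floor, with no p-value. limma 3.58.1 in R 4.3.3 (lmFit, eBayes, Benjamini-Hochberg over 10411 genes) fitted population and transduction, with 1 residual and 4.27 prior degrees of freedom. Scripts were tested on simulated data. The chaperone genes, lists, marker lists and rule for named genes were chosen with earlier results of these data known. Named genes were the 10 chaperone genes and the 5 genes nearest to Hspa1a and Hspa2. Further ones were taken from list members meeting the 2-fold rule and from up to 4 per list by size of difference. Not every list member that met the rule is named, and others were named after their values were seen. Alternatives covered normalization, the floor, the threshold, probe sets of a gene and the limma settings. Promoter windows and gene symbols come from RefSeq, GRCm38.p6. For 21698 of the 1-symbol probe sets the gene number was found there, with 0 symbols changed.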

Additional observations from a re-analysis of the deposited data

Results flagged for a closer look

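Several chaperone genes had CreER minus mock differences of opposite sign in the 2 populations. With 1 array in each group, the difference between the populations was not tested. Hspa1a differed by 0.23 in LT-HSC colonies and -1.55 in ST-HSC colonies, 1.78 apart. The probe set shared by Hspa1a and Hspa1b differed by 0.43 and -1.29, 1.73 apart. Hspd1 differed by 0.19 and -0.24, 0.43 apart, and Hsph1 by 0.12 and -0.17, 0.29 apart. Hsp90aa1 differed by 0.15 and -0.06, 0.21 apart, and Hspa8 by 0.11 and -0.05, 0.16 apart. The gaps of Hspa8, Hsp90aa1 and Hsph1 were wider than those of 52.0%, 64.9% and 78.4% of all genes in the limma fit, and those of Hspd1 and Hspa1a were wider than those of 90.1% and 99.8%.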

How the results depend on the processing

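Over 3 other normalizations and both other ways to treat probe sets, Hspa1a lay between -1.55 and -1.29 for CreER against mock in ST-HSC colonies and between -1.49 and -1.43 for LT-HSC against ST-HSC with mock, and Hspa2 lay between 1.27 and 1.33 for CreER against mock in LT-HSC colonies. In LT-HSC colonies Hspa1a ranged more widely, from 0.21 to 0.43, and its limma estimate for CreER minus mock was -0.43 when the probe set shared with Hspa1b was used, against -0.66 without it. Chaperone genes called numbered 0 at 3-fold in each pair, 0 with the floor at the 75th percentile for CreER against mock in LT-HSC colonies, where Hspa2 is under that floor, 2 with 1.5-fold for LT-HSC against ST-HSC with CreER, and 2 when probe sets with several symbols were allowed, where the shared probe set stands for both Hspa1a and Hspa1b and is 1 measurement under 2 symbols, for CreER against mock in ST-HSC colonies and for LT-HSC against ST-HSC with mock. Over all genes, CreER against mock with LT-HSC gave 89 calls at 2-fold, 417 at 1.5-fold, 12 at 3-fold and 53 with the higher floor, and with ST-HSC 52, 200 at 1.5-fold and 7 at 3-fold. LT-HSC against ST-HSC gave 319 calls with mock, 825 at 1.5-fold, 143 at 3-fold and 169 with the higher floor, and with CreER 198, 697 at 1.5-fold, 67 at 3-fold and 93 with the higher floor. For LT-HSC minus ST-HSC in limma, 653 genes passed, against 368 after cyclic loess normalization, 186 with the higher floor, 200 without the transduction term and 1401 at an adjusted p of 0.1; the cause was not tested for the normalization and for the dropped term. In limma 0 chaperone genes passed for either term in all settings run. The labels carry no replicate numbers. The limma fit already accounts for population when it sets CreER against mock, but it gives a shared estimate for both populations and none for each. Levels under the floor, as for Hspb1, limit what can be said of a gene: after cyclic loess normalization its CreER minus mock difference in LT-HSC colonies was 0.10, against 0.20 as deposited.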
